A study of Mus musculus with 4 samples.

Results

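The IFIT genes are the interferon-induced genes with tetratricopeptide repeats. Counts were summed for 5 of them, Ifit1, Ifit1bl1, Ifit2, Ifit3 and Ifit3b, of the 32285 genes in the matrices, in each cell type and each of 4 single-cell libraries, whatever their values. In droplet-based single-cell RNA-seq, a unique molecular identifier (UMI) marks every captured transcript so that it counts once, and reads lie at its 3′ end, so the counts are not scaled by transcript length. The study asked what loss of the arginine methyltransferase Prmt9 in leukaemia cells does to the leukaemia and to the host's immune cells. Recipients were wild-type C57BL/6J mice aged 6 to 8 weeks that carried transplanted MA9 cells, which are mouse haematopoietic progenitors turned leukaemic by MLL-AF9. These held either a control (Ctrl) or a short hairpin against Prmt9 (shPrmt9) that doxycycline induces, and all animals drank doxycycline for 7 days. Bone marrow gave the libraries BM-Ctrl and BM-shPrmt9, and spleen gave Spleen-Ctrl and Spleen-shPrmt9. Per the study's methods, each group was represented by 1 mouse. By design the transplanted MA9 cells carried the hairpin and the host was wild type, and each difference given is between single libraries, so it has no replicate check.

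IFIT proteins are built from repeated helical modules and bind RNA. IFIT1 binds the 5′ end of viral RNA whose cap lacks 2′-O methylation and keeps it from being translated, and human IFIT3 binds IFIT1 and stabilises it. Type I interferon switches the genes on through its receptor and interferon-stimulated response elements in their promoters, and they are silent or low in most resting cells.

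The genes lie in 1 cluster on chromosome 19 of the mouse build GRCm38, within 99.3 kb. From the GENCODE annotation, Ifit2 (ENSMUSG00000045932) runs from 34550694 to 34576419 on the plus strand. Ifit3 (ENSMUSG00000074896) follows from 34583531 to 34588731 on the plus strand, and Ifit1bl1 (ENSMUSG00000079339), an Ifit1-like copy, from 34592891 to 34601956 on the minus strand. Ifit3b (ENSMUSG00000062488), a near copy of Ifit3, runs from 34607970 to 34613401, and Ifit1 (ENSMUSG00000034459) from 34640871 to 34650009, both on the plus strand. No other annotated gene overlapped a member. Because Ifit3 and Ifit3b are so alike, 35.1% of the 90-base windows of the Ifit3 transcript also occurred in Ifit3b, but in the last 500 bases, where this assay reads, 27 of 411 did (6.57%). For Ifit3b, 0 of 411 windows at the 3′ end occurred in Ifit3. Ifit1 shared 104 windows with Ifit1bl2, an uncounted copy beside it, and none of these was at the 3′ end. Reads in shared windows can be dropped or assigned to either copy, so the Ifit3 count carries that uncertainty.

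The 200 bases before each start site are shown because the members differed in how far apart the libraries were, and because the interferon response acts through these promoters. They are RefSeq sequences of GRCm38.p6, each 5′ to 3′ on the gene's own strand, and capitals mark GAAANNGAAA, a core of the interferon-stimulated response element, or its reverse complement TTTCNNTTTC. The windows are chr19:34583329-34583528 (plus strand) for Ifit3, chr19:34607757-34607956 (plus) for Ifit3b, chr19:34640689-34640888 (plus) for Ifit1, chr19:34601969-34602168 (minus) for Ifit1bl1 and chr19:34550494-34550693 (plus) for Ifit2.
Ifit3: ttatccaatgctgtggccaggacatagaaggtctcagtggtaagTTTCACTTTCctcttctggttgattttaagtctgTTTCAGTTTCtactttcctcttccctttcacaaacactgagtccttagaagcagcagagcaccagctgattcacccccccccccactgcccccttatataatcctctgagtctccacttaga
Ifit3b: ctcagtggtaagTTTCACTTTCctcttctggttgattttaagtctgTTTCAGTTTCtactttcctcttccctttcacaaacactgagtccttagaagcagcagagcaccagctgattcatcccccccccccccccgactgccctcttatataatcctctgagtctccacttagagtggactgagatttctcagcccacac
Ifit1: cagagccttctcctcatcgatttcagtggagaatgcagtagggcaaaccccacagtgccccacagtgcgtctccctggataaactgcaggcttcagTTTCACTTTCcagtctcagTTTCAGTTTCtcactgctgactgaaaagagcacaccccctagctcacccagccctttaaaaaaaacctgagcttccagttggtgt
Ifit1bl1: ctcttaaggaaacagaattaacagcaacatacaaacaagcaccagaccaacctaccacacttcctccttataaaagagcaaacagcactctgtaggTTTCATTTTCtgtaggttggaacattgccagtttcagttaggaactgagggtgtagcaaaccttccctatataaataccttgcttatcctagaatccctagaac
Ifit2: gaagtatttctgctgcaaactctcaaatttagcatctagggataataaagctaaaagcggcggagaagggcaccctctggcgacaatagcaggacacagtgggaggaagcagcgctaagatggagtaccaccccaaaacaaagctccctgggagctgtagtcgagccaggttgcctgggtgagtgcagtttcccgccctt

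Ifit3, Ifit3b and Ifit1 each held 2 matches, all in the reverse orientation. They began at −156 and −122 from the start site in Ifit3, at −188 and −154 in Ifit3b and at −104 and −85 in Ifit1. The pair in Ifit3 and Ifit3b is the same stretch, since the 300-base promoter windows of these copies shared an identical run of 169 bases. Ifit1bl1 held 1 match in each of its annotated promoters, at −104 in the one shown and at −23 in the other. Ifit2 had no match in either of its promoters, which says only that these letters are not in these windows. For comparison, the motif was found in 3.44% of 32851 RefSeq promoter windows of 300 bases on either strand, 2 or more matches in 0.225%, and 11 of the 24 other type I interferon targets with a window held one. A match is a description of letters and not a measured binding site.

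After filtering, 8901, 10175, 8306 and 7545 cells were used, listed here and below as control then shPrmt9 for bone marrow and then for spleen, with 151554130, 172994670, 73859172 and 97088957 UMIs and 6268 to 10377 UMIs in the median cell. Prmt9 itself was at 11.6 counts per 1000000 UMIs (CPM) in MA9 cells of BM-Ctrl and 6.13 CPM in those of BM-shPrmt9, a ratio of 0.526 (0.472–0.587). In MA9 cells of spleen it was at 16.02 and 3.31 CPM, from 22 and 6 UMIs, a ratio of 0.207 (0.0686–0.526). Prmt9 was also lower over all spleen cells, at 13.02 and 7.09 CPM from 962 and 688 UMIs (0.544, 0.493–0.601), nearly all of them outside the MA9 gate, and the cause was not tested. Pairs of libraries shared 15 to 35 cell barcodes. Over 4 Y-linked genes the bone marrow libraries held 1 and 2 UMIs and the spleen libraries 15485 and 14455, which goes against 1 mouse having given both tissues of a group, so tissue and animal cannot be told apart. Cells were put in a class by their own markers (for MA9, Hoxa9, Hoxa10, Hoxa7, Hoxa5, Meis1 and Pbx3), and 5.92% to 22.5% of a library's cells stayed in no class. A class name below stands for that gate only.

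Over all cells, IFIT transcripts were far more abundant in the shPrmt9 libraries. Values over all cells, here and below, also carry the mix of classes. B cells, for example, were 5522 of 8306 cells in Spleen-Ctrl and 1193 of 7545 in Spleen-shPrmt9. In bone marrow the 5 genes summed to 14.9 CPM with the control and 266.5 CPM with the hairpin, and in spleen to 201 and 794 CPM. Bone marrow thus had a shPrmt9 to Ctrl ratio of 17.8 (17.1–18.6) and spleen one of 3.95 (3.89–4.02), and the smaller ratio of spleen went with a control level 13.4 times (12.9–14.1) that of bone marrow. Here and below, brackets after a ratio hold its exact 95% interval, conditional binomial, and those after a level an exact Poisson interval, both for counting error only.

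Ifit1 was at 5.47, 103, 29.9 and 346 CPM in the 4 libraries in that order, with ratios of 18.7 (17.5–20.1) in bone marrow and 11.6 (11.1–12.1) in spleen. Ifit3 was at 3.44, 87.4, 75.6 and 254 CPM, with ratios of 25.4 (23.3–27.8) and 3.36 (3.26–3.46). Ifit3b was at 1.78, 38.2, 19.4 and 71.4 CPM, with ratios of 21.4 (18.97–24.3) and 3.69 (3.48–3.91). For these 3 genes both shPrmt9 libraries stood above both Ctrl libraries. Ifit2 was at 3.22, 35.7, 32.6 and 84.4 CPM, with ratios of 11.1 (10.1–12.2) and 2.58 (2.47–2.71), and BM-shPrmt9 and Spleen-Ctrl were close. Ifit1bl1 ran apart from the others, at 1.04, 2.78, 43.4 and 39.5 CPM. Over all cells, whose mix of classes differed by tissue, it split the libraries by tissue more than by hairpin. Its ratios were 2.68 (2.24–3.23) and 0.908 (0.866–0.952), and the spleen value passed to the other side of 1 under 4 of the alternatives, up to 1.14, so no direction is given for it. All 5 members were at least 2-fold higher in BM-shPrmt9, against 7.72% of the 15942 genes with 20 or more UMIs there, and 4 of 5 were in Spleen-shPrmt9, against 7.47%.

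**Figure D1:**
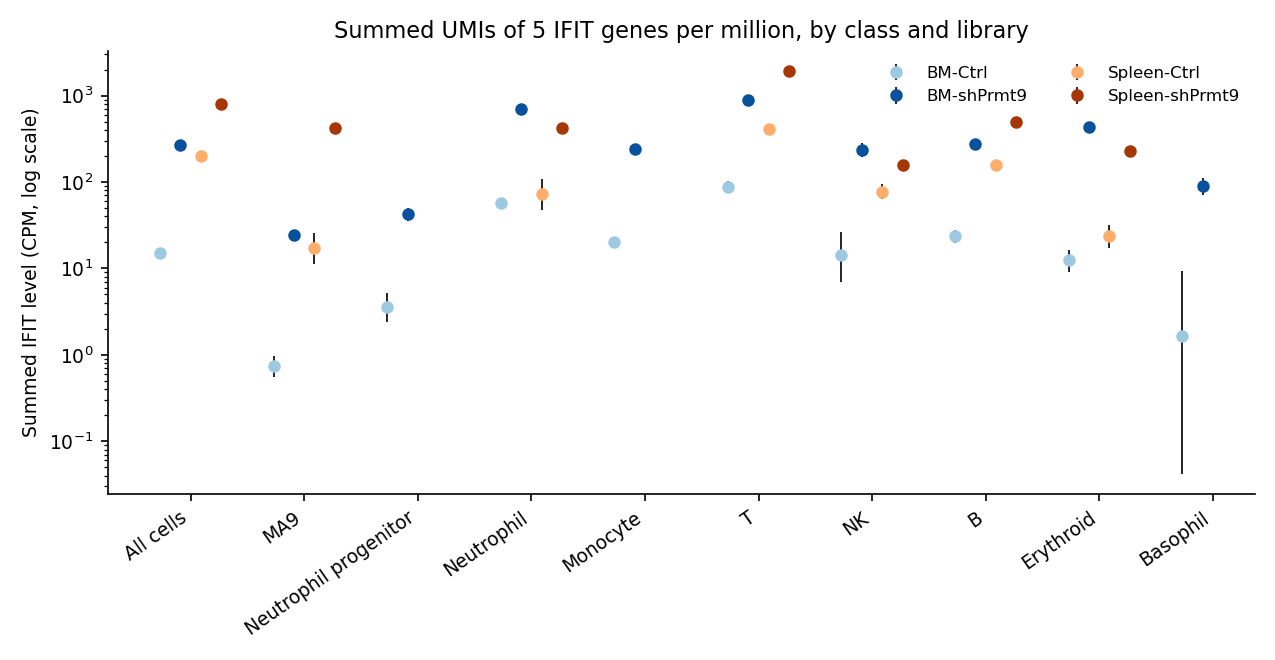
Summed level of the 5 IFIT genes in CPM (log scale) by cell class, with a colour for each library and bars for exact 95% Poisson intervals (counting error). The shPrmt9 point lies above the Ctrl point of its tissue in every class shown, from 0.743 against 24.5 CPM in MA9 cells of bone marrow to 408 against 1920 CPM in T cells of spleen.

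MA9 cells had the lowest IFIT levels of the compared classes in BM-Ctrl, BM-shPrmt9 and Spleen-Ctrl, though in Spleen-Ctrl they could not be separated from erythroid cells, and one of the larger ratios. The sum was 0.743 CPM (0.561–0.965) in BM-Ctrl, from 56 UMIs over 1286 cells, and 24.5 CPM (23.5–25.6) in BM-shPrmt9, from 2175 UMIs over 1572 cells, a ratio of 33.0 (25.3–43.9). With the doublets kept the ratio was 17.4 (14.6–20.8). In BM-shPrmt9, 237 of the 1572 cells held a UMI of Xist, an RNA from the inactive X chromosome of female cells. They carried 786 of the 2175 IFIT UMIs, at 58.7 CPM against 18.5 CPM in those with no Xist UMI. In BM-Ctrl 0.622% of MA9 cells held a Xist UMI. Ifit1 went from 20 to 1120 UMIs, with a ratio of 47.6 (30.7–78.3), and Ifit2 from 25 to 352 UMIs, with a ratio of 11.97 (7.98–18.8). Ifit3 had 5 and 479 UMIs (81.5, 34.7–252), Ifit3b 4 and 202 UMIs (42.9, 16.5–159) and Ifit1bl1 2 and 22 UMIs (9.35, 2.30–82.0). All 5 were at least 2-fold higher, against 12.9% of genes tested in these cells. The ratio of Ifit2 was the smallest apart from that of Ifit1bl1, and its interval lay below those of Ifit1 and Ifit3.

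RNA released into the droplets limits how these low levels can be read. It was gauged by Igkc, an immunoglobulin light-chain gene of B cells that MA9 cells should lack, which stood higher here than globin genes. S100a8 and S100a9 of neutrophils were not used for MA9 cells, as the classes are related. Igkc was found in MA9 cells of bone marrow at 5.02% of the whole-library level in Ctrl and at 4.46% in shPrmt9. IFIT RNA at those same percentages would be 0.7503 and 11.9 CPM, that is 100.9% and 48.4% of what was counted. The BM-Ctrl level was therefore read as background, and released RNA's part in the BM-shPrmt9 level was not tested further. Different clusters also held most of the class: clusters 0 and 8 in BM-Ctrl (773 and 416 cells), and clusters 30 and 13 in BM-shPrmt9 (1246 and 235 cells). IFIT levels in BM-shPrmt9 were 19.8 CPM in cluster 30 and 30.9 CPM in cluster 13, against 0.622 and 0.699 CPM in clusters 0 and 8 of BM-Ctrl. In cluster 4, with 38 MA9 cells of BM-Ctrl and 55 of BM-shPrmt9, the ratio was 19.2 (8.06–59.8), and in cluster 13 there were 279 UMIs in 235 cells of BM-shPrmt9 and 0 in 37 cells of BM-Ctrl. These 2 shared clusters held 5.83% of the MA9 cells of BM-Ctrl and 18.4% of those of BM-shPrmt9.

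In spleen, MA9 cells were few, with 39 in Ctrl and 67 in shPrmt9, and their sum was 17.5 CPM (11.2–26.0) and 428 CPM (399–460), a ratio of 24.5 (16.3–38.5). When classes were named from clusters instead, with 23 and 20 cells, the ratio was 11.8 (6.27–24.6). In Spleen-shPrmt9, Ifit1 was at 247 CPM, Ifit3 at 99.4 CPM, Ifit2 at 49.7 CPM, Ifit3b at 28.2 CPM and Ifit1bl1 at 4.42 CPM. The released-RNA level was 6.19% of the counted sum there and 33.2% in Spleen-Ctrl. All 4 members with 20 or more UMIs were at least 2-fold higher, against 12.8% of genes, and cluster 13 held 57 of the 67 cells in shPrmt9 while clusters 28 and 0 held 26 of the 39 in Ctrl. MA9 cells of Spleen-shPrmt9 thus stood far above those of BM-shPrmt9, a comparison across animals.

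T cells had the highest IFIT level of the compared classes in each library. Macrophages, whose gate was too weak for a comparison, stood higher in Spleen-shPrmt9, at 2366 CPM (2201–2541) from 59 cells. In bone marrow the T cell sum was 88.1 CPM in Ctrl (241 cells) and 891 CPM in shPrmt9 (143 cells). In spleen it was 408 CPM (1933 cells) and 1920 CPM (2621 cells). These levels give ratios of 10.1 (8.53–12.04) and 4.71 (4.59–4.83). Ifit1 differed most, at 14.1, 431, 91.4 and 849 CPM, with ratios of 30.5 (20.4–47.6) and 9.29 (8.82–9.78). Without Ifit1 the bone marrow ratio of the sum was 6.21 (5.12–7.58) and the spleen ratio 3.39 (3.29–3.49). Ifit3 was at 18.6, 256, 153 and 645 CPM, with ratios of 13.7 (9.57–20.3) and 4.23 (4.06–4.41), and Ifit3b had ratios of 8.67 (4.39–19.1) and 5.07 (4.65–5.54). Ifit2 had ratios of 4.41 (2.88–6.92) and 3.30 (3.05–3.58). Ifit1bl1 differed least, at 32.8, 80.0, 86.5 and 111 CPM, with ratios of 2.44 (1.74–3.45) and 1.28 (1.20–1.36). All 5 members were at least 2-fold higher in bone marrow, against 4.37% of genes, and 4 of 5 in spleen, against 4.84%. The level that released RNA would give was at most 3.28% of the T cell sum in any library.

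The T cells of spleen were split, after the data had been seen, into cells with a Cd4 UMI but none of Cd8a or Cd8b1, and the reverse. Cells with Cd8a or Cd8b1, the Cd8 set (974 in Ctrl and 1074 in shPrmt9), had a sum ratio of 5.30 (5.12–5.49), from 370 to 1961 CPM. Cells with Cd4 (436 and 708) had 4.06 (3.84–4.30), from 469 to 1904 CPM. The Cd4 set thus stood above the Cd8 set in Ctrl, and in shPrmt9 the levels were close. Ifit1bl1 had a ratio of 1.57 (1.45–1.71) in Cd8 cells and 0.918 (0.797–1.06) in Cd4 cells, and Ifit1 11.4 and 7.80. In bone marrow the Cd8 ratio was 9.94 from 146 and 84 cells, and only 24 and 17 cells were in the Cd4 set, with 12.7.

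In B cells Ifit1 and Ifit1bl1 stood far apart. Their sum was 23.5 CPM against 272 CPM in bone marrow (1047 and 99 cells) and 156 CPM against 497 CPM in spleen (5522 and 1193 cells), with ratios of 11.6 (9.38–14.3) and 3.19 (3.09–3.28). Ifit1 was at 1.74, 68.1, 8.56 and 126 CPM, with ratios of 39.1 (20.01–85.0) and 14.7 in bone marrow and spleen. Ifit2, Ifit3 and Ifit3b were each 2.87 to 3.35 times as high in Spleen-shPrmt9 as in Spleen-Ctrl. Ifit1bl1 was at 10.1, 27.6, 35.04 and 20.6 CPM, higher in shPrmt9 in bone marrow (2.73, 1.68–4.36) and lower in spleen (0.588, 0.528–0.653). All 5 members passed 2-fold in bone marrow, against 4.82% of genes, and 4 of 5 in spleen, against 4.38%.

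**Figure D2:**
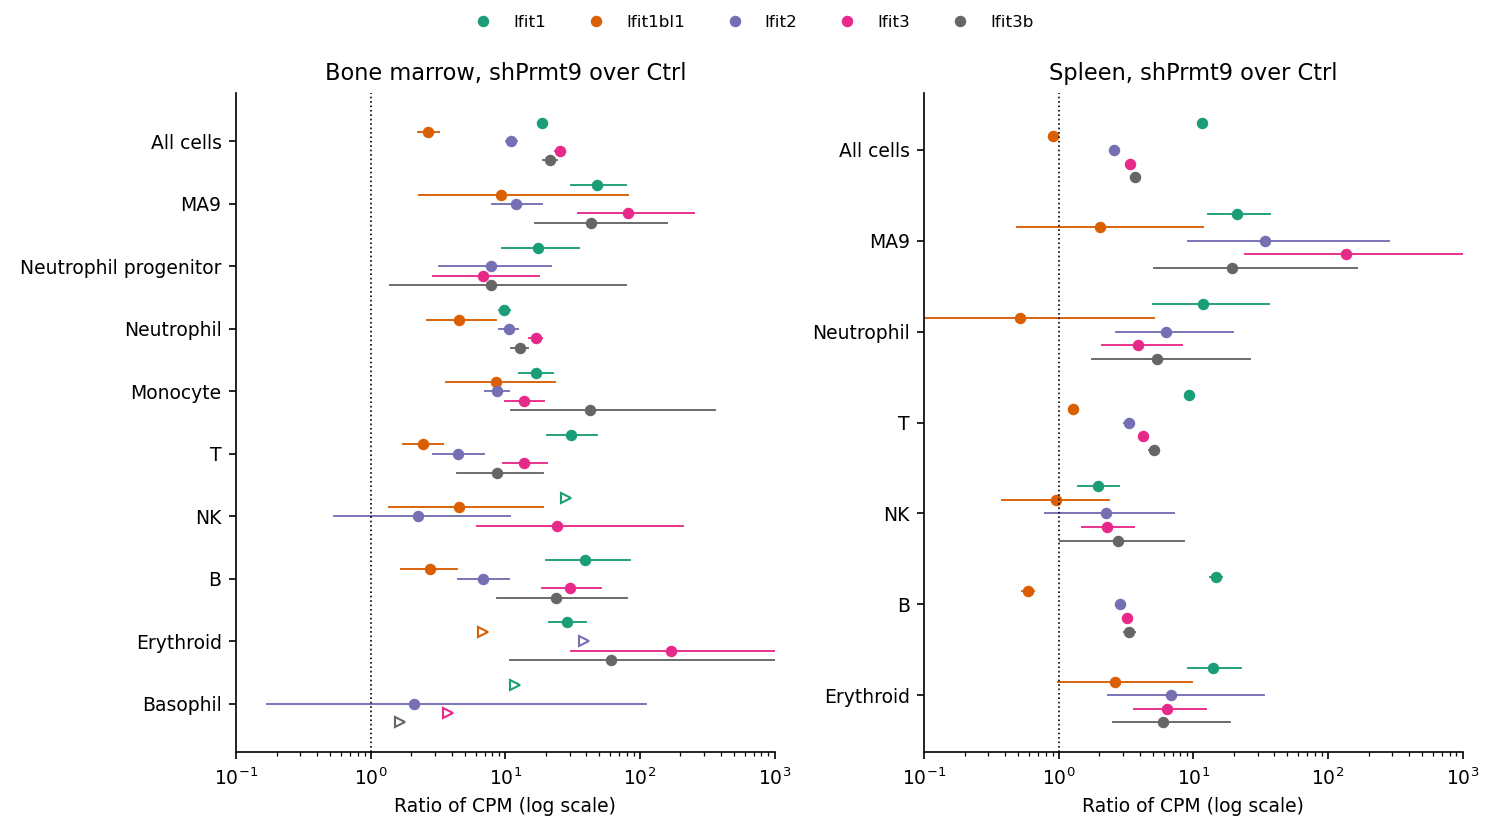
Ratio of CPM, shPrmt9 over Ctrl (log scale), of each IFIT gene by class in bone marrow and spleen. Bars are exact 95% intervals for counting error, cut off at the axis ends, open triangles are lower bounds where Ctrl had 0 UMIs, and the dotted line marks a ratio of 1. Ifit1bl1 lies left of the other members in B and T cells, at 0.588 and 1.28 in spleen.

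Ratios were also taken within clusters. The clusters were built without the genes of the lists used below and without genes whose names start with Ifi, Isg, Oas, Gbp, Irgm, Trim30 or Slfn. Other interferon-stimulated genes, such as Tmem140, were not removed by name. The clusters therefore cannot be taken as free of the interferon response. In spleen B cells, 6 clusters with 20 or more cells in both libraries held 98.8% of the shPrmt9 cells and 99.1% of the Ctrl cells, and the sum ratio was above 1 in all 6, from 2.65 (0.959–10.2), whose interval reached below 1, to 20.5 (12.8–34.97). Ifit1bl1 went in no single direction there. Its ratio was 0.471 (0.330–0.662) in cluster 5, 0.881 (0.454–1.55) in cluster 12, 1.08 (0.876–1.34) in cluster 14, 1.35 (1.05–1.74) in cluster 18 and 6.43 (1.94–33.4) in cluster 31, and cluster 34 had 1 UMI against 0. The value of 0.588 for all spleen B cells therefore does not hold within each cluster. Cluster 12, with 52.6 CPM of Ifit1bl1 in Ctrl, held 3423 of the 5522 B cells of Spleen-Ctrl and 36 of the 1193 of Spleen-shPrmt9.

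In spleen T cells, the 4 shared clusters held 97.4% of the Ctrl cells but 9.35% of the shPrmt9 cells, since clusters 9 and 27 held most T cells of Ctrl and clusters 35 and 1 most of shPrmt9. The sum ratio in the 4 was 2.90 (2.68–3.13), 2.94 (2.62–3.29), 13.9 (11.4–17.2) and 15.6 (9.49–27.7). Bone marrow gave 10.2 and 23.8 in 2 shared T clusters, which held 40.7% of the Ctrl and 55.2% of the shPrmt9 cells, and 20.1 and 33.8 in 2 shared B clusters, which held 28.1% and 65.7%. In each of these clusters the IFIT sum was higher in the shPrmt9 library.

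**Figure D3:**
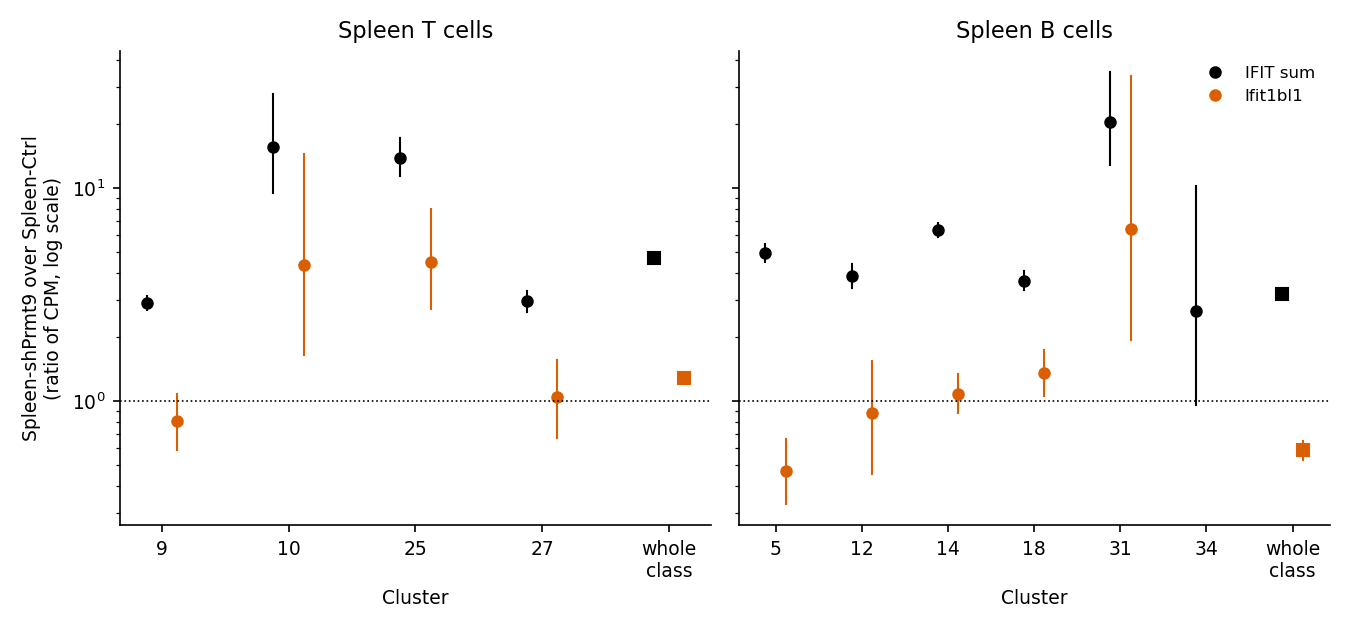
Ratio of the IFIT sum and of Ifit1bl1, shPrmt9 over Ctrl (log scale), within each cluster of spleen T and B cells that held at least 20 cells in both libraries, with exact 95% intervals for counting error and squares for the whole class. Points of the sum all lie above 1, and those of Ifit1bl1 in spleen B cells lie on both sides of it, from 0.471 to 6.43.

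Neutrophils, the most numerous class of bone marrow, had a ratio close to those of T and B cells there. Neutrophils had 57.8 CPM in BM-Ctrl (3293 cells) and 703 CPM in BM-shPrmt9 (4919 cells), which is 12.2-fold (11.5–12.9), and 73.0 and 427 CPM in spleen (24 and 127 cells), a ratio of 5.85 (3.94–9.08). Without the cell with most IFIT UMIs in each library, which held 12 of the 25 UMIs in Spleen-Ctrl, the spleen ratio was 10.4 (6.08–19.7). In bone marrow Ifit3 had the largest ratio, 16.8, and Ifit1bl1 the smallest, 4.56. All 5 members passed 2-fold in bone marrow neutrophils, against 4.06% of genes, and all 4 members tested did in spleen, against 11.0%. The class was spread over clusters differently in the libraries: cluster 2 held 2193 of the Ctrl cells and 82 of the shPrmt9 cells, while clusters 19 and 20 held 105 and 123 of the Ctrl cells and 1616 and 1393 of the shPrmt9 cells. The sum ratio was 7.04 (6.04–8.19) in cluster 2, 3.62 (3.07–4.29) in cluster 19 and 3.61 (3.12–4.21) in cluster 20. In cluster 11, with 743 and 1619 cells, it was 35.5 (28.4–44.9). The small clusters 13 (24 and 40 cells) and 26 (76 and 81 cells) had 11.3 (2.90–96.7) and 13.4 (8.34–22.8). The value for the whole class is thus near that of clusters 13 and 26 but not that of clusters 2, 11, 19 and 20.

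Monocytes, gated by Csf1r, Ccr2 and other markers, had 20.1 CPM in BM-Ctrl (583 cells) and 239 CPM in BM-shPrmt9 (239 cells), a ratio of 11.9 (10.3–13.8). Ifit2 was their leading member, at 10.5 and 90.01 CPM, and made up 52.2% of their IFIT UMIs in Ctrl and 37.6% in shPrmt9. Ifit3b was rare in them, at 0.173 CPM (2 UMIs) and 7.34 CPM. All 5 members passed 2-fold, against 6.12% of genes.

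Erythroid cells, which shed most of their transcripts as they mature, still had one of the largest ratios. Their sum was 12.4 CPM against 440 CPM in bone marrow (596 and 955 cells) and 23.9 CPM against 228 CPM in spleen (158 and 1559 cells), with ratios of 35.5 (26.4–48.8) and 9.56 (7.13–13.1). Ifit1 was at 11.8, 338, 11.1 and 155 CPM, which was most of the sum in each library but Spleen-Ctrl, where it had 21 of 45 UMIs. Without Ifit1 the bone marrow ratio was 184 (50.8–1525), from 2 UMIs in Ctrl, and the spleen ratio 5.73 (3.84–8.98). The mean of each cell's own CPM gave 59.5 in bone marrow, and in spleen TMM scaling gave 17.7 and a stricter filter on cells 14.4. Ifit2 and Ifit1bl1 had 0 UMIs in BM-Ctrl and were at least 38.5-fold and at least 6.87-fold higher in BM-shPrmt9, taking 3 UMIs as the limit of a count of 0. All 5 members passed 2-fold in both tissues, but so did 18.7% of the genes tested in erythroid cells of bone marrow and 8.00% in spleen. Released RNA at the level of Igkc would make up 57.4% of the IFIT sum in Spleen-Ctrl and 14.1% in Spleen-shPrmt9.

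Among the rarer classes, neutrophil progenitors of bone marrow had 3.63 and 42.3 CPM (177 and 161 cells), a ratio of 11.7 (7.75–18.1). A single cell held 21 of the 29 IFIT UMIs of BM-Ctrl, and the ratio was 38.4 once that cell and the highest cell of BM-shPrmt9 were left out (18.9–91.0), while the other alternatives ran from 7.65, without Ifit1, to 20.1. NK cells of bone marrow had 14.5 and 237 CPM (77 and 39 cells), a ratio of 16.4 (8.58–35.1), which was 7.97 without Ifit1. NK cells of spleen had the smallest ratio of all classes, 2.01 (1.58–2.56), from 77.7 and 156 CPM (92 and 135 cells). There, 1 cell held 48 of the 106 UMIs of Ctrl, and without the highest cells the ratio was 3.09 (2.28–4.24), while classes named from clusters gave 6.88 (5.26–9.13). Basophils of bone marrow had 1 UMI in Ctrl and 89.3 CPM in shPrmt9, a ratio of 53.4 (9.31–2138), and its alternatives ran from 18.3 to 100.4. Released RNA, judged by Igkc of B cells or by S100a8 and S100a9 of neutrophils, limits these rarer classes too. Its level would be 27.3% of the counted sum in neutrophil progenitors of BM-Ctrl and 37.0% in those of BM-shPrmt9. For basophils these shares were 32.8% and 30.1%. NK cells had 5.35% in BM-Ctrl, 8.32% in BM-shPrmt9, 9.51% in Spleen-Ctrl and 26.2% in Spleen-shPrmt9. The part of released RNA in these ratios was not tested. Plasmacytoid dendritic cells, known as strong producers of type I interferon, reached 20 cells only in BM-Ctrl, at 20.7 CPM, and plasma cells only in Spleen-shPrmt9, at 100.7 CPM.

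The control libraries themselves differed by tissue. The sum in Spleen-Ctrl was 6.63 times (5.59–7.92) that in BM-Ctrl in B cells, 5.37 times (2.81–11.5) in NK cells and 4.62 times (3.95–5.45) in T cells. In erythroid cells it was 1.93 times (1.25–2.98), and in neutrophils, with 24 cells in spleen, 1.26 times (0.814–1.87), an interval that includes 1. For MA9 cells no factor is given, since their BM-Ctrl level was read as background. Over all cells Ifit1bl1 stood apart most, at 41.9 times (35.7–49.5), and Ifit1 least, at 5.47 times (5.04–5.93). In T and B cells this order did not hold. Ifit1bl1 was at 2.64 times (2.03–3.49) in T cells and 3.46 times (2.67–4.58) in B cells. Ifit1 was at 6.47 and 4.91 times there. Neutrophils, with 2 Ifit1bl1 UMIs in Spleen-Ctrl, had 8.15 times for Ifit1bl1 and 0.598 times for Ifit1. The part of the mix of cells in the all-cell values was not tested. In BM-Ctrl, T cells were highest and MA9 cells lowest, with basophils, at 1 UMI, not separable from either MA9 cells or neutrophil progenitors.

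The make-up of the family differed between classes and between hairpin and control. As each molecule is counted once at its 3′ end, counts of different members can be set side by side, subject to differences in capture. In BM-shPrmt9 there were 7.17 Ifit1 UMIs for each Ifit3 UMI in erythroid cells, 2.34 (2.10–2.61) in MA9 cells, 1.68 in T cells, 0.942 in neutrophils and 0.645 in B cells. Neutrophil progenitors had 3.81 there and basophils 3.13, each with an interval that overlapped that of MA9 cells. In Spleen-shPrmt9 the value was 3.81 in erythroid cells, 2.48 in MA9 cells and 0.644 in B cells, while neutrophils (1.51, 1.29–1.77) and T cells (1.31, 1.29–1.34) overlapped. In Spleen-Ctrl the ratio was 0.599 in T cells and 0.140 in B cells, so Ifit1 took a larger place in both in shPrmt9: its share of IFIT UMIs was 22.4% and 44.2% in T cells and 5.49% and 25.3% in B cells. The share of Ifit1bl1 went the other way, from 43.0% to 10.1% in B cells of bone marrow, from 22.5% to 4.14% in B cells of spleen, from 37.2% to 8.98% in T cells of bone marrow and from 21.2% to 5.76% in T cells of spleen. In neutrophils of bone marrow Ifit1bl1 was 1.24% and 0.464%. Monocytes had 0.140 Ifit3b UMIs per Ifit3 UMI in BM-shPrmt9 and neutrophils 0.479.

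**Figure D4:**
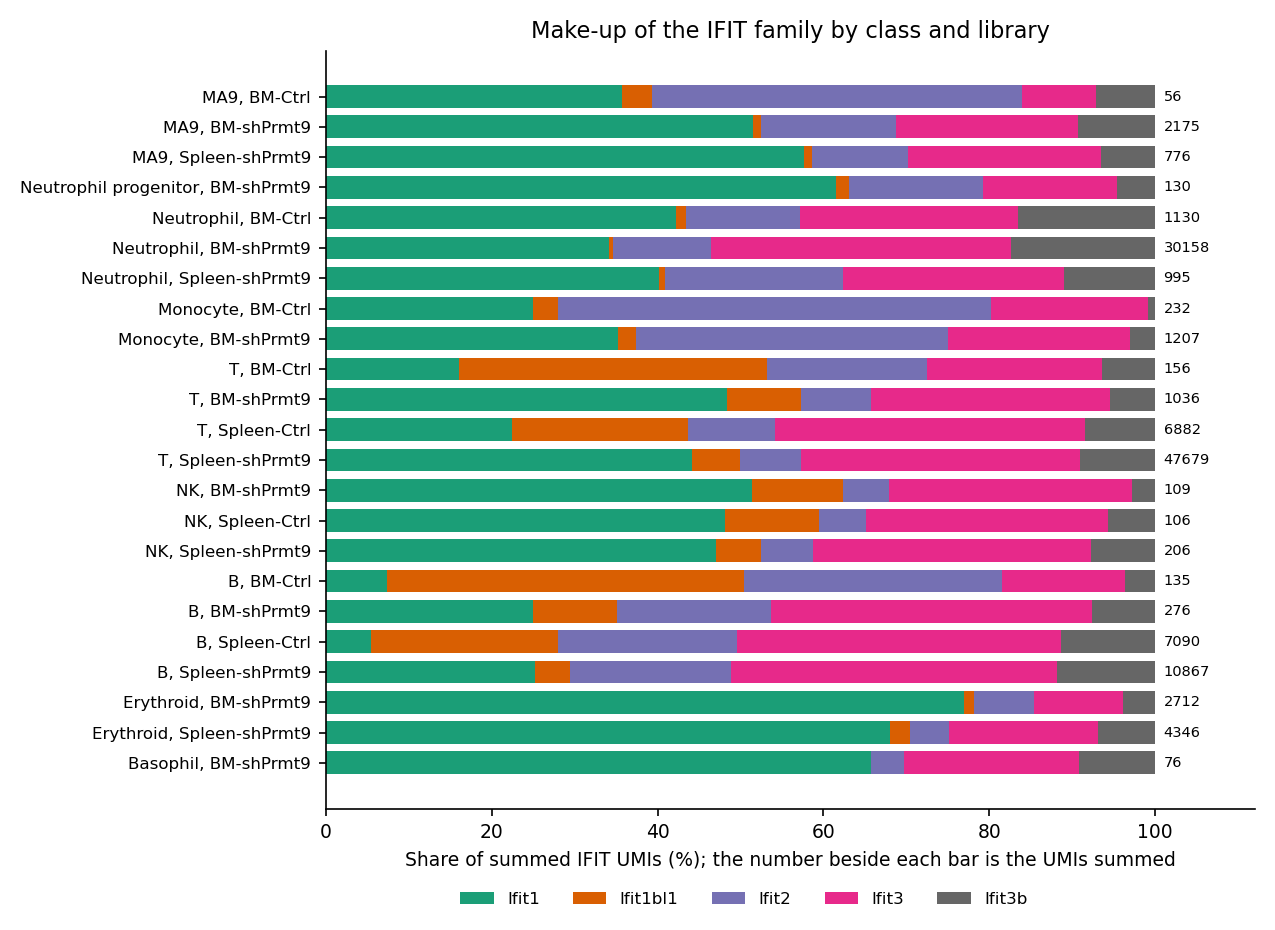
Share of each member among the IFIT UMIs of a class, in percent, with the number of UMIs beside each bar. Classes with fewest IFIT UMIs in a library are not drawn, and the smallest bar rests on 56. In shPrmt9 erythroid cells are mostly Ifit1 (76.9% in bone marrow and 68.0% in spleen), and Ifit1bl1 has its larger shares in T, B and NK cells, with 43.0% in B cells of BM-Ctrl and 10.1% in those of BM-shPrmt9.

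Next, cells were thinned to 2000 UMIs each, so that libraries of different depth could be compared, and those with any IFIT UMI were counted. Over all cells the share was 4.80% and 42.3% for control and hairpin of bone marrow, then 29.8% and 57.1% for those of spleen. This left out 560, 705, 128 and 774 cells of lower depth. Unthinned, 9.93%, 64.8%, 55.5% and 74.1% of cells had an IFIT UMI. T cells had the highest thinned shares, 16.6%, 61.7%, 51.1% and 89.9%, and B cells had 4.75%, 37.1%, 24.5% and 56.5%. Neutrophils went from 5.96% to 55.3% and monocytes from 4.36% to 38.4% in bone marrow, so in these classes the higher CPM went with IFIT transcripts in many cells.

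In MA9 cells the thinned share was 0.312% (4 of 1283 cells) and 6.19% in bone marrow. In spleen it was 0 of 39 cells in Ctrl, which at this thinned depth allows a share of up to 7.69%, and 46.3% of 67 cells in shPrmt9. At full depth 28.2% and 88.1% of these cells had an IFIT UMI. Erythroid cells of bone marrow had 1.81% and 34.3%, those of spleen 4.79% and 16.1%, and NK cells of spleen 10.9% and 15.5%. In neutrophil progenitors 0 of 166 thinned cells of BM-Ctrl had an IFIT UMI, which allows up to 1.81% at this depth, and 8.74% of BM-shPrmt9, while at full depth 3.95% and 30.4% had one. Shares in the MA9 class of BM-Ctrl were at the level that released RNA gives, as for the CPM.

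The spread over cells also differed by class. In T cells of Spleen-shPrmt9, 84.3% had 5 or more IFIT UMIs at full depth, and the 10% of cells with most held 26.7% of the UMIs. In MA9 cells of BM-shPrmt9, 111 cells (7.06%) had 5 or more, against 0 in BM-Ctrl, and the top 10% held 64.6%. In erythroid cells of Spleen-shPrmt9 the top 10% held 84.3%, and 1 cell had 203 UMIs. In NK cells there it held 86.4%, so a few cells carried the level in these classes.

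Members were found in the same cells. In BM-shPrmt9, 52.1% of thinned cells with an Ifit3 UMI also had an Ifit1 UMI, against 16.9% of those without, and 38.3% against 6.94% had Ifit3b. In BM-Ctrl, 34.9% of the 129 cells with Ifit3 had Ifit1, against 1.67% of the others. In T cells of Spleen-shPrmt9 the shares were 78.5% and 63.0%. In MA9 cells of BM-shPrmt9, 24.1% of the 29 cells with Ifit3 had Ifit1, against 3.38% of the rest. These shares pool cells of 1 library and are a description.

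**Figure D5:**
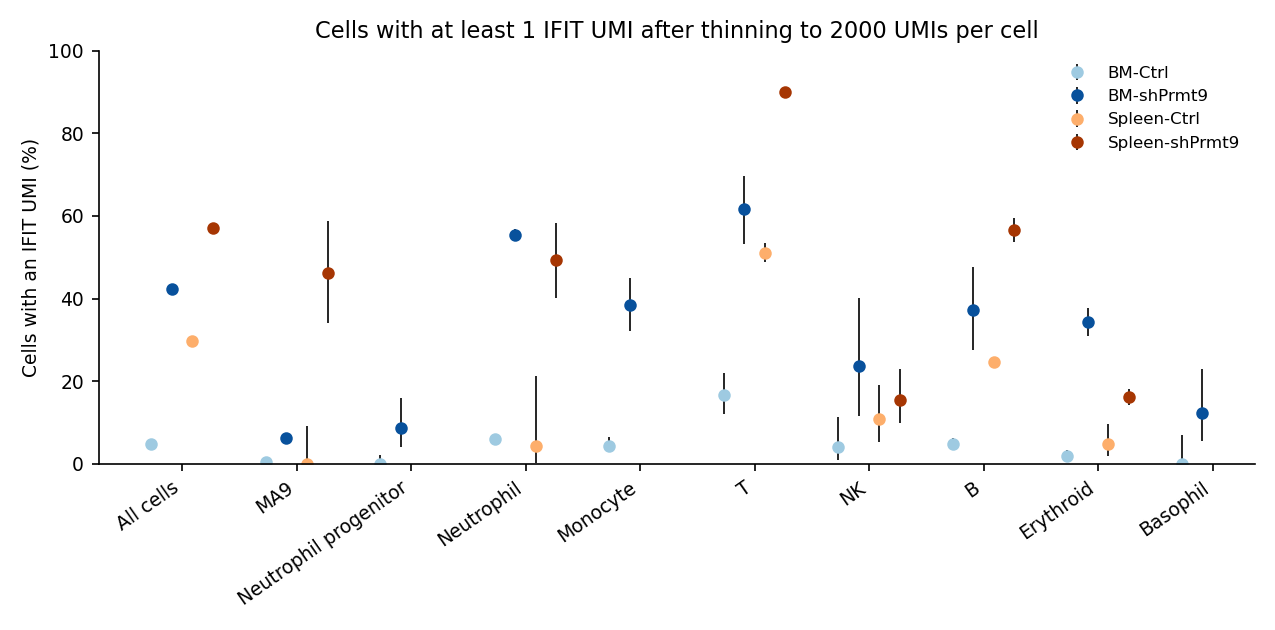
Percent of cells with at least 1 IFIT UMI after thinning to 2000 UMIs, by class and library, with exact 95% binomial intervals for counting error. T cells of Spleen-shPrmt9 reach 89.9%, while MA9 cells of BM-Ctrl lie at 0.312%.

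Sex-linked RNA differed between classes and libraries. In BM-shPrmt9 Xist, expressed from the inactive X chromosome of female cells, was at 28.4 CPM in MA9 cells, 131 CPM in neutrophils, 204 CPM in erythroid cells, 548 CPM in T cells, 678 CPM in monocytes and 1003 CPM in B cells. In BM-Ctrl it was at 320 CPM in T cells, 194 CPM in NK cells and 41.0 CPM in B cells, and at 0 to 0.346 CPM in the other classes. Myeloid and erythroid classes of BM-Ctrl thus lacked both Xist and Y-linked RNA, as MA9 cells did, whereas those of BM-shPrmt9 carried Xist. Its part in the IFIT ratios was not tested. IFIT levels of BM-shPrmt9 cells with and without a Xist UMI were both high: 603 and 837 CPM in neutrophils, 236 and 295 CPM in monocytes, and 445 and 436 CPM in erythroid cells. In MA9 cells they were 58.7 CPM with and 18.5 CPM without a Xist UMI. Without cells that held a Xist or Y-linked UMI, an alternative added after the data were seen, the bone marrow ratio was 24.7 (18.9–32.8) in MA9 cells, 14.5 in neutrophils, 14.5 (11.7–18.1) in T cells and 35.2 in erythroid cells.

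Most genes whose level followed that of the summed IFIT genes are known interferon-stimulated genes. Over 32 combinations of class and library, the 10 genes with the highest Pearson correlation of log2(CPM + 1) with the IFIT sum included Xaf1 (0.865), Rtp4 (0.864), Usp18 (0.862), Tmem140 (0.821), Irf7 (0.820), Parp14 (0.8001), Herc6 (0.797), Oasl2 (0.773) and Oasl1 (0.768). Usp18 dampens signalling from the type I interferon receptor, and Irf7 drives interferon genes. By Spearman's rho 9 of these 10 stayed among the first 10. Of the members, Ifit3 followed the sum most closely, with 0.967, then Ifit1 and Ifit3b with 0.929, Ifit2 with 0.879 and Ifit1bl1 with 0.720. Between members the highest value was 0.955, for Ifit3 and Ifit3b, and the lowest 0.542, for Ifit1 and Ifit1bl1, while Ifit1 and Ifit3 gave 0.882. Each member is itself part of the sum, and members with more UMIs weigh more in it, so their order is partly built in. The points share libraries and depth, so these values describe likeness only.

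Other parts of the interferon pathway were read from lists, each beside all genes tested. Of 32 other type I interferon targets tested over all cells, 27 were at least 2-fold higher in BM-shPrmt9, against 7.72% of all genes. In Spleen-shPrmt9 20 were, against 7.47%. None of these targets was 2-fold lower in either, against 9.26% and 15.1% of all genes. Their log2 ratios had medians of 1.94 and 1.37, against −0.13 and −0.34 for all genes, while the IFIT members had a median of 4.23 in bone marrow. In MA9 cells of bone marrow 27 of 32 were 2-fold higher, against 12.9% of all genes, led by Rtp4 (23.4-fold), Ifi44 (20.7-fold) and Oasl1 (15.6-fold), while Sp100 (0.76), Tor3a (1.11) and Eif2ak2 (1.46) had the lowest ratios. In T cells of spleen 19 of 32 were, against 4.84%, led by Oasl1 (19.1-fold), Rsad2 (18.5-fold) and Isg15 (7.60-fold), with Sp100 (0.85), Dtx3l (1.14) and Lgals3bp (1.23) lowest. In erythroid cells of bone marrow all 32 tested were 2-fold higher, against 18.7%.

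Of the genes that carry the signal from the type I interferon receptor, Stat2 had a ratio of 2.00 (1.91–2.10) over all cells of bone marrow and 0.941 (0.909–0.974) over all cells of spleen. It had 1.39 (1.26–1.52) in MA9 cells of bone marrow, 2.38 (1.496–3.83) in T cells of bone marrow and 1.63 (1.51–1.76) in T cells of spleen. Irf9 had 1.504 (1.46–1.55) and 0.965 (0.935–0.996) over all cells of bone marrow and spleen. Of the receptor chains, Ifnar1 had 0.836 (0.799–0.875) over all cells of bone marrow, and Ifnar2 had 1.07 (1.03–1.11) over all cells of spleen and 0.760 (0.699–0.826) in T cells there. Of 20 interferon ligand genes only Ifng, the type II interferon, had enough UMIs to compare, with 92 in BM-Ctrl and 36 in BM-shPrmt9 (0.343, 0.226–0.509) and a ratio of 1.69 (1.48–1.94) over all spleen cells. T cells of bone marrow had 1.01 (0.446–2.23) and T cells of spleen 0.792 (0.621–1.01), so the values over all cells did not hold within T cells. The type I ligands that act upstream of the IFIT genes could not be compared at this depth.

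Genes that respond mainly to interferon gamma were counted in the same way. Of 8 such genes 3 were 2-fold higher and 2 were 2-fold lower over all cells of bone marrow, against 7.72% and 9.26% of all genes. Within its MA9 cells 3 of 6 tested were higher, against 12.9% of all genes, and in neutrophils 2 of 4, against 4.06%. In monocytes 4 of 6 were higher, against 6.12%, and in erythroid cells 4 of 4, against 18.7%. In these classes 0 were lower, against 2.36% to 6.68% of all genes. T cells had 2 higher and 1 lower of 4, against 4.37% and 3.91%. B cells had 2 higher and 1 lower of 6, against 4.82% and 7.09%. Over all cells of spleen 0 were higher and 3 lower, against 7.47% and 15.1% of all genes. Among the lower were Ciita (0.12) and H2-Ab1 (0.16), which serve antigen presentation by class II molecules. B cells were a smaller part of Spleen-shPrmt9 than of Spleen-Ctrl, and the part of this mix was not tested. Within spleen B cells 1 of 6 was higher and 3 were lower, against 4.38% and 11.0%. In spleen T cells 0 of 7 were higher and 2 were lower, against 4.84% and 8.72%. Beside the Ifit locus, 1 of 6 genes tested over all bone marrow cells was 2-fold higher, Acta2 (2.22-fold), and 1 was 2-fold lower, Pank1 (0.49), against 7.72% and 9.26% of all genes. In MA9 cells of spleen 4 of 5 tested were 2-fold higher, against 12.8%, with Acta2 (3.98-fold), Lipa (3.39-fold) and Fas (3.17-fold) highest. There 1 was lower, against 14.1%. In T cells of spleen the same counts among 5 tested were 1, Fas (2.40-fold), and 1, Pank1 (0.36), against 4.84% and 8.72% of all genes. None of the 4 genes of mRNA cap methylation (Cmtr1, Cmtr2, Rnmt and Ramac) was 2-fold apart over all cells, in T cells of spleen or in MA9 cells of bone marrow. In the last, Rnmt had a ratio of 0.65. In bone marrow 1 was 2-fold higher in monocytes and 1 in erythroid cells, against 6.12% and 18.7% of all genes. In spleen 1 was 2-fold higher in MA9 cells and 1 in erythroid cells, against 12.8% and 8.00%. In these 4 classes, in the order named, 0 were lower, against 6.68%, 2.36%, 14.1% and 32.3% of all genes.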

How the data were processed

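Cells of bone marrow and spleen were profiled with the 10x Genomics 3′ kit v2. The authors deposited raw UMI counts for every gene in every barcode, from Cell Ranger (6.0.2 in the file headers, 6.1.1 and build mm10 in the submitters' processing notes). The annotation was not given in the sources used here. Groups came from library titles, 1 library each, so no test, p-value or count model was used.

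Barcodes needed 200 genes or more and no more than 20% of UMIs from mitochondrial genes. Scrublet's own threshold (scanpy 1.11.5) marked 128, 0, 1 and 190 cells, which was too few in BM-shPrmt9 and Spleen-Ctrl, so the highest scores up to 0.8% per 1000 cells were left out (744, 999, 640 and 520 cells). Cells took the class whose marker panel passed its cut, with at least 2 panel UMIs, while every other panel stayed below its own cut. Panels that a class also carries by its nature, such as that of neutrophil progenitors in MA9 cells, were exempt. Cells that met this for no class stayed without one. Cuts were set after panel levels were seen, without IFIT values. Clusters (igraph 0.11.9, Leiden, resolution 1.5, no batch correction) served for checks. They used 2930 genes, which were 3000 variable genes less the listed genes, the interferon families named above, and mitochondrial and sex-linked genes. Macrophages were not compared: 47.8% of cells lay near the cut and 2 of 6 markers were in at least 10% of cells. The authors' cell labels were not used, and rebuilt names can differ from theirs.

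UMIs were summed per class and library, scaled to CPM and compared where both libraries had at least 20 cells. Genes with at least 20 UMIs entered the 2-fold counts. The 5 members were always named, and of each list the 3 highest and 3 lowest ratios could be. The IFIT genes and the lists were chosen with earlier results of these data known. Mx1, Mx2 and the marker Ahsp were not in the table used, and some results of the interferon lists are not reported here. Splits by Cd4 or Cd8 genes, Xist and cluster were chosen after seeing the data. Code was tested on simulated data. Alternatives covered gating, doublets, cell filters, scaling (edgeR 4.0.16 TMM factors only), thinning, the highest cell and the leading member.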

Additional observations from a re-analysis of the deposited data

Results flagged for a closer look

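Ifit1bl1 was the 1 member whose ratio lay on different sides of 1 in the 2 tissues. Over all cells it was 2.68 in bone marrow and 0.908 in spleen, and in B cells 2.73 and 0.588. The difference between tissues was not tested, since each tissue has 1 library per group. The spleen value over all cells changed side under 4 alternatives, and the spleen B cell value did not hold within each cluster.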

How the results depend on the processing

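All 167 alternative values of the 17 summed IFIT ratios stayed above 1, and 162 were at least 2. The other 5 were in NK cells of spleen, the lowest being 1.47. Of 438 alternative values of single members, 4 changed side, each for Ifit1bl1 over all spleen cells: 1.02 under a stricter filter on cells (500 genes, 10% mitochondrial), 1.14 with TMM factors, 1.05 with the mean of each cell's CPM, and 1.05 with globin and mitochondrial genes left out of the total. TMM factors shifted every log2 ratio by 0.12 over all bone marrow cells, 0.33 over all spleen cells and 0.89 in erythroid cells of spleen. The causes were not tested.

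Sums over all bone marrow cells gave 18.95 with doublets kept, 19.4 with TMM and 12.6 with the mean of each cell's CPM. For MA9 cells of bone marrow the values were 17.4 with doublets kept, 24.9 without Ifit1 and 24.7 without cells holding a Xist or Y-linked UMI. For T cells of bone marrow they were 12.1 with classes from clusters, 6.21 without Ifit1 and 14.5 without the cells with sex-linked UMIs. Over all spleen cells they were 4.47 with the stricter cell filter, 4.95 with TMM, 4.60 with the mean of each cell's CPM, 4.55 without globin and mitochondrial genes and 2.62 without Ifit1. MA9 cells of spleen gave 11.8 with classes from clusters. T cells of spleen gave 4.57 with a stricter margin between panels, 4.38 with classes from clusters, 5.03 with TMM, 4.19 with the mean of each cell's CPM and 3.39 without Ifit1. Classes under 20 cells gave no value under some settings, and basophils none without the highest cell. No paired analysis was possible because each group had 1 library. Depth limits the classes with few IFIT UMIs in Ctrl, such as basophils (1), NK cells of bone marrow (10), MA9 cells of spleen (24), neutrophils of spleen (25) and neutrophil progenitors (29).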
